A study of Mus musculus with 36 samples.

Results

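The genes described here are 6 genes of the joint surface and its lining: *Prg4*, which encodes the lubricant lubricin, *Cilp*, *Creb5*, *Gdf5*, *Has1* and *Has2*. They are 6 of the 56246 genes measured by RNA-seq in mouse tibiae. *Prg4* was selected on its low level in saline-treated against wild-type bone, and the other 5 were picked as genes of the joint lining to be read beside it. For that comparison the differences of these 6 genes are therefore a description with no p-value. Tests are given for the comparisons of ABE-treated bone, for differences between the sexes and for the genes of other lists. The ABE comparisons still share the wild-type or the saline-treated libraries on which *Prg4* was chosen. That choice favours a fall of *Prg4* against wild-type and a rise against saline, so its p-values there are not independent support. The other 5 genes and the gene lists were chosen with earlier results of these data known. Their p-values and counts are therefore not fully independent support either.

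Bone of 3 groups of 12 mice was compared, each with 6 males and 6 females that were 6 months old. Wild-type mice had not been treated. The other groups carried the genotype LMNAG608G/G608G (*LMNA* G/G here), a human *LMNA* transgene in 2 copies with the mutation of Hutchinson-Gilford progeria syndrome, a disease of early ageing, and were injected behind the eye at P14, 14 days after birth, with saline or with an adenine base editor (ABE). The editor rewrites the mutant base and was carried by a pair of adeno-associated viruses. All *LMNA* G/G mice kept the transgene and had been injected, and no wild-type mouse had been injected. The transgene is a large stretch of human DNA that also holds a neighbouring human gene, and it was not analysed here. The authors describe the groups as littermates, but the labels of the wild-type mice stand in a number series of their own. The labels name no batch, and a difference in batch, if any, cannot be told apart from genotype. RNA came from tibiae freed of epiphyses and marrow, which leaves mostly cortical bone. The osteocyte markers *Dmp1*, *Mepe*, *Phex* and *Sost* were present in every group, with wild-type means between 2.93 and 11.6 scaled TPM. Levels are given as scaled TPM, that is, deposited TPM (reads corrected for gene length and library total) divided by a factor per library that aligns the libraries on their typical gene. Libraries held between 48064068 and 116206662 reads on genes (median 78234452.5). The factor lay between 0.61 and 1.57 in all libraries but that of the ABE-treated female F109436, where it was 0.219. In bulk bone, fewer cells of a type and less RNA per cell cannot be told apart.

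Joints move on a thin film. Lubricin, a long mucin-like glycoprotein, is secreted by synovial lining fibroblasts and by the chondrocytes of the superficial zone of articular cartilage, and coats the cartilage surface. Hyaluronan, a large sugar polymer, is extruded into the joint fluid by the hyaluronan synthases of the cell membrane, which include *Has1* and *Has2*. CREB5 is a bZIP transcription factor known to be needed for *Prg4* expression in superficial chondrocytes, GDF5 is a BMP family ligand that marks the interzone where joints form, and CILP is a matrix protein of cartilage, tendon and other fibrous tissue.

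The coding repeat of *Prg4* and the start regions of 3 of the genes are printed because the first carries the lubricating domain and the others hold, or lack, the sequence bound by the CREB and ATF family, to which CREB5 is related. *Prg4* (ENSMUSG00000006014.16) lies on the minus strand of chromosome 1, from 150449412 to 150466165 of GRCm38. Exon 6 of its 12 exons held 18 exact copies of a unit of 24 coding bases, spread between positions 150454593 and 150455882, and the stretch of 144 bases at chr1:150455289-150455432 is shown on the minus strand with its 5 exact copies in capitals. This exon is where lubricin's mucin-like region, rich in sugar chains, is encoded.
Prg4 repeat: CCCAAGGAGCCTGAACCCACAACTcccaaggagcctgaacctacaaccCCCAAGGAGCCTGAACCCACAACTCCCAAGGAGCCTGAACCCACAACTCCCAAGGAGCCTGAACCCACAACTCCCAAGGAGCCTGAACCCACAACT

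Start regions were taken from RefSeq on GRCm38.p6 for *Creb5*, *Cilp* and *Has1*, as the 250 bases before each annotated start, and searched on both strands for the cAMP response element TGACGTCA and for the AP-1 site TGANTCA, which both read the same on either strand and cannot match the same bases. Of 32851 regions of this length, 1.55% held the first and 6.75% the second. *Creb5* (chr6:53287053-53287302, plus strand) held TGACGTCA, in capitals below, with its first base at position -45 from the start. *Has1* (chr17:17855189-17855438, minus strand) held it at position -83. The window of *Cilp* (chr9:65264930-65265179, plus strand) held neither sequence, and that of a second *Creb5* start held TGACTCA. No start region of *Prg4*, *Gdf5* or *Has2* was found in the source used, so theirs were not searched. These matches describe the letters alone, and binding was not measured.
Creb5: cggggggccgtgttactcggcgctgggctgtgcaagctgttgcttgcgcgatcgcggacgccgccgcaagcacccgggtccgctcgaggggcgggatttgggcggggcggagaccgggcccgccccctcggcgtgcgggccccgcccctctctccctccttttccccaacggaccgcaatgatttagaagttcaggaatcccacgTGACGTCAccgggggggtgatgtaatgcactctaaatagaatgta
Has1: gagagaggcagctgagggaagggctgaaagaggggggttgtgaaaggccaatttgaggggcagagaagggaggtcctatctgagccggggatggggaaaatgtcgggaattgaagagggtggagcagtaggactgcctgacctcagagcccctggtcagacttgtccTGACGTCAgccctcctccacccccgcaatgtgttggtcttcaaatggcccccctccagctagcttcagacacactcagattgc
Cilp: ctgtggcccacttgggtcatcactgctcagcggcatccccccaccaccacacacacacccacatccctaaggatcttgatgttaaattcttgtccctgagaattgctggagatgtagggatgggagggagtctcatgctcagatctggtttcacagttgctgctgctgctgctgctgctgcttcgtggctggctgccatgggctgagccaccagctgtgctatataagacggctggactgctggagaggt

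In saline-treated *LMNA* G/G bone, *Cilp* and *Has1* were low together with *Prg4* in each of the 12 libraries, while *Creb5*, *Has2* and *Gdf5* overlapped with wild-type. The wild-type mean was 136.6 times the saline mean for *Prg4*, 16.0 times for *Has1* and 5.80 times for *Cilp*. For *Creb5* and *Has2* it was 1.33 and 1.30 times, and *Gdf5* was 1.77 times higher in saline-treated than in wild-type bone.

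*Prg4*, the lubricant itself, ranged in wild-type libraries from 45.9 scaled TPM through a median of 55.5 to 169.81, with a mean of 82.6 ± 45.0 (SD, n = 12). Saline-treated libraries lay between 0.0812 and 1.85 around a median of 0.358, with a mean of 0.605 ± 0.594 (SD, n = 12). ABE-treated libraries lay between 0.575 and 9.77 around a median of 1.38, with a mean of 2.37 ± 2.54 (SD, n = 12). Every *LMNA* G/G library lay below every wild-type library, and the order of the group medians was wild-type, ABE and saline. Among all 25110 genes tested, 3.73% had every saline library below every wild-type library, and 4.58% had every ABE library there. The low levels still rested on reads, with 148 to 2215 reads of *Prg4* in saline-treated libraries against 46923 to 160751 in wild-type. The saline minus wild-type difference was -7.28 on the log2 scale (SE 0.41, 95% interval -8.12 to -6.43), where 0.05 was added to scaled TPM before the logarithm.

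*Cilp* (ENSMUSG00000042254.14, chromosome 9, 65265180 to 65280605, plus strand) encodes the matrix protein. Wild-type libraries lay between 5.16 and 13.97 scaled TPM (median 7.17, mean 8.80 ± 3.31, SD, n = 12), and saline-treated ones between 0.136 and 3.22 (median 1.42, mean 1.52 ± 0.785, SD, n = 12). ABE-treated libraries spread from 0.653 to 11.99 (median 3.74, mean 4.04 ± 2.94, SD, n = 12). The saline libraries again lay below all wild-type libraries, but 2 ABE libraries, female 5 at 11.99 and male 8 at 5.43, reached into the wild-type range. Saline minus wild-type was -2.65 (SE 0.37, 95% interval -3.41 to -1.89).

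*Has1* (ENSMUSG00000003665.7, chromosome 17, 17843323 to 17855205, minus strand), a hyaluronan synthase, was weakly expressed and stood further below wild-type, as a ratio, than *Cilp*. Wild-type libraries lay between 0.189 and 0.777 scaled TPM (median 0.283, mean 0.366 ± 0.207, SD, n = 12), with 199 to 928 reads. Saline-treated libraries lay between 0.0119 and 0.0342 (median 0.0226, mean 0.0228 ± 0.0058, SD, n = 12), with 15 to 47 reads. ABE-treated libraries lay between 0.0145 and 0.107 (median 0.0327, mean 0.0418 ± 0.0283, SD, n = 12). No library of either *LMNA* G/G group reached the wild-type range. Saline minus wild-type was -2.38 (SE 0.18, 95% interval -2.74 to -2.01) with 0.05 added, and -3.79 on recovered reads, since the added constant understates differences at this level.

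*Has2* (ENSMUSG00000022367.7, chromosome 15, 56665627 to 56694539, minus strand), the synthase that supplies most hyaluronan in development, differed little. It ranged from 0.0568 to 0.117 scaled TPM in wild-type (median 0.0860), from 0.0358 to 0.0940 in saline-treated (median 0.0683) and from 0.0445 to 0.105 in ABE-treated libraries (median 0.0733). The groups overlapped, with 3 saline and 2 ABE libraries below the wild-type range. Saline minus wild-type was -0.23 (SE 0.085, 95% interval -0.40 to -0.057).

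*Creb5* (ENSMUSG00000053007.9, chromosome 6, 53287270 to 53700376, plus strand), the transcription factor, lay between 0.116 and 0.435 scaled TPM in wild-type (median 0.184), between 0.122 and 0.223 in saline-treated (median 0.167) and between 0.158 and 0.339 in ABE-treated libraries (median 0.253). No saline or ABE library lay outside the wild-type range. Saline minus wild-type was -0.26 (SE 0.14, 95% interval -0.55 to 0.028).

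*Gdf5* (ENSMUSG00000038259.4, chromosome 2, 155941023 to 155945367, minus strand), the joint-forming ligand, had a higher mean than wild-type in both *LMNA* G/G groups. It lay near the floor of the data, at 0.0194 to 0.0935 scaled TPM in wild-type (median 0.0455, 10 to 53 reads), 0.0562 to 0.123 in saline-treated (median 0.0863, 39 to 79 reads) and 0.0563 to 0.110 in ABE-treated libraries (median 0.0769, 22 to 72 reads). In each *LMNA* G/G group 4 libraries exceeded the highest wild-type library, and the rest overlapped. Saline minus wild-type was 0.47 (SE 0.091, 95% interval 0.29 to 0.66). *Gdf5* passed the filter of a mean of 0.05 scaled TPM through its *LMNA* G/G levels, and *Has1* through its wild-type level, whereas *Prg4*, *Cilp*, *Creb5* and *Has2* exceeded it in every group.

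**Figure D1:**
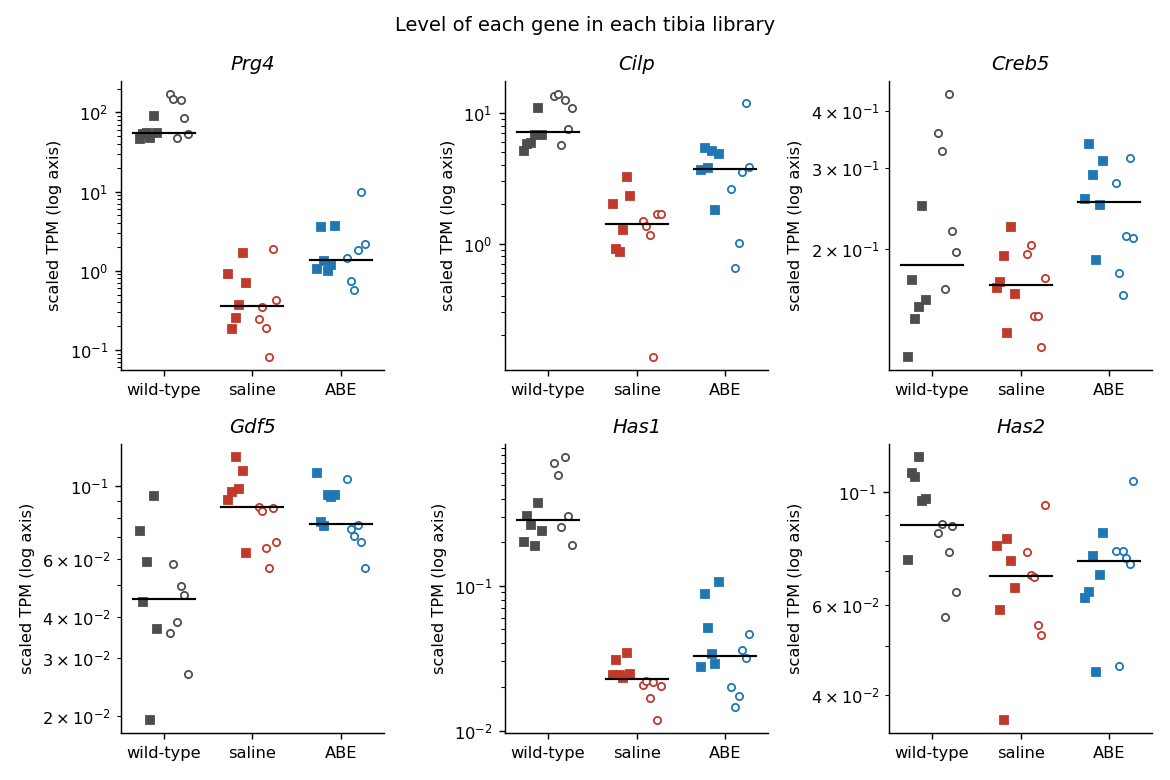
Level of the 6 genes in scaled TPM (log axes, which differ between panels) in each tibia library, with squares for males, open circles for females and a line at the group median. Saline-treated libraries lie below all wild-type libraries for *Prg4*, *Cilp* and *Has1* and overlap with them for *Creb5*, *Gdf5* and *Has2*.

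Counted library by library, *Prg4*, *Cilp* and *Has1* all lay below the wild-type range in 12 of 12 saline-treated libraries and in 10 of 12 ABE-treated libraries. These are the genes of the 6 whose saline libraries did not overlap with wild-type. The count of 12 of 12 follows from that choice and adds no evidence. Among all genes tested, 3.73% had every saline library below every wild-type library, and 4.58% had every ABE library there. The other 2 ABE libraries, female 5 and male 8, had *Prg4* and *Has1* below it and *Cilp* inside it. With the threshold that the other genes were tested at (an adjusted p under 0.05 from limma, adjusted by Benjamini-Hochberg over all genes tested), 4 of the 6 genes were called lower in saline-treated bone, 1 higher and 1 not, beside 24.2% of all genes called lower and 24.2% higher. Nothing is read from this count, since *Prg4* was selected on this comparison.

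Within each group, apart from the difference on which *Prg4* was selected, *Cilp* was higher in libraries with more *Prg4*. On log2 scaled TPM the correlation of *Cilp* with *Prg4* had r = 0.86 and rho = 0.84 in wild-type, r = 0.78 and rho = 0.84 in saline-treated and r = 0.81 and rho = 0.71 in ABE-treated libraries (n = 12 each). Without the 2 libraries farthest from the median of *Prg4*, r was 0.76, 0.84 and 0.71. For *Has1* r was 0.95 in wild-type, 0.56 in ABE-treated and -0.0027 in saline-treated libraries (rho = 0.85, 0.69 and 0.070). For *Creb5* it was 0.95, 0.74 and 0.054 (rho = 0.85, 0.79 and 0). Whether these values differ between the groups was not tested. Summed levels of other tissues also went with *Prg4*, to a degree that varied by list and group. In wild-type, saline and ABE in turn, r with *Prg4* was 0.82, 0.36 and 0.87 for the fibroblast list (rho = 0.67, 0.33 and 0.95), 0.70, 0.72 and 0.70 for tendon and ligament (rho = 0.67, 0.72 and 0.78) and 0.57, 0.70 and 0.49 for muscle (rho = 0.61, 0.69 and 0.51). Without the 2 libraries farthest from the median of each sum, r was 0.70, 0.42 and 0.87 for fibroblasts, 0.58, 0.44 and 0.55 for tendon and ligament and 0.58, 0.39 and 0.15 for muscle. For cartilage r was 0.28, 0.19 and 0.68 (rho = 0.27, 0.15 and 0.50, and r = 0.52, 0.25 and 0.18 without 2), and for synovial lining fibroblasts 0.82, 0.10 and 0.45 (rho = 0.66, -0.098 and 0.47, and r = 0.69, -0.038 and 0.50 without 2). Without the 2 libraries farthest in *Prg4*, r for *Has1* and *Creb5* was 0.92 and 0.94 in wild-type, 0.85 and 0.71 in ABE-treated and 0.13 and 0.13 in saline-treated libraries. *Gdf5* and *Has2* had r between -0.24 and 0.35 with *Prg4* in the 3 groups. In saline-treated bone *Has1* rested on 15 to 47 reads. These values are descriptions, and the libraries of a group share both sexes and the tissue taken along with the bone. In wild-type bone the females 3, 4 and 6 held the highest levels of *Prg4* (143 to 169.81 scaled TPM), *Cilp* (12.5 to 13.97), *Creb5* (0.327 to 0.435) and *Has1* (0.586 to 0.777) at once.

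**Figure D2:**
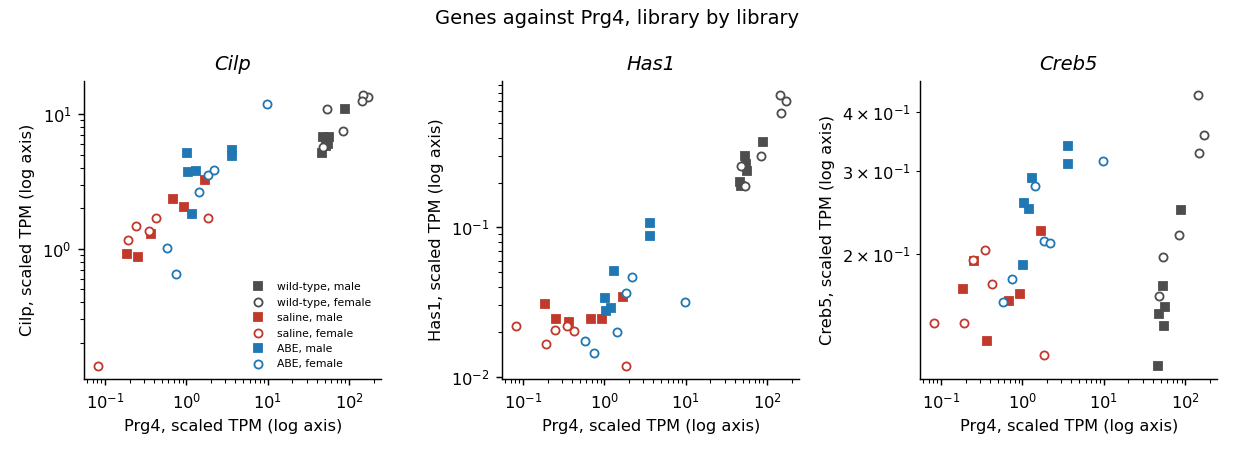
*Cilp*, *Has1* and *Creb5* against *Prg4*, each in scaled TPM on log axes, 1 point per library, coloured by group, with squares for males and open circles for females. Libraries with more *Prg4* have more *Cilp* within each group, and more *Has1* and *Creb5* within the wild-type and the ABE-treated group.

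The genes whose level followed *Prg4* most closely were found by the mean of the 3 within-group Spearman correlations, over 12 libraries each, among 15899 genes whose mean reached 0.5 scaled TPM. Their median was -0.077. The first 5 were *Tmem255b* (mean rho 0.80), *Aebp1* (0.80), *Cilp* (0.79), *Stk38l* (0.78) and *Cdon* (0.77). Their group means ran in different orders. For wild-type, saline and ABE in turn, *Cilp* was at 8.80, 1.52 and 4.04 scaled TPM and *Cdon* at 1.36, 0.461 and 0.887. *Aebp1* was at 4.21, 6.21 and 8.63, *Tmem255b* at 0.739, 0.626 and 1.43, and *Stk38l* at 1.03, 0.979 and 1.32.

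ABE-treated bone still held much less *Prg4*, *Cilp* and *Has1* than wild-type. The wild-type mean was 34.9 times the ABE mean for *Prg4*, 8.75 times for *Has1* and 2.18 times for *Cilp*. *Prg4* fell by 5.39 on the log2 scale (SE 0.41, adjusted p = 2.9e-12, limma with Benjamini-Hochberg adjustment), *Has1* fell by 2.09 (SE 0.18, adjusted p = 2.7e-11, limma) and *Cilp* fell by 1.36 (SE 0.37, adjusted p = 0.0018, limma). On recovered reads, which need no added 0.05, *Has1* was at -3.15. *Gdf5* rose by 0.45 (SE 0.091, adjusted p = 6.3e-05, limma), but only by 0.16 on the TPM as deposited (adjusted p = 0.26, limma). *Creb5* did not pass (0.18, 95% interval -0.10 to 0.47, adjusted p = 0.27, limma) and lay at -0.26 on the TPM as deposited. *Has2* lay at the threshold (-0.19, 95% interval -0.36 to -0.016, adjusted p = 0.051, limma). It passed on the TPM as deposited (-0.52, adjusted p = 1.6e-04, limma), on recovered reads (adjusted p = 0.044, limma-voom) and when wild-type replicate 1, 5, 6 or 12, saline replicate 6 or 9, or ABE replicate 1, 3, 6 or 12 was left out, with differences between -0.23 and -0.19. Of the 6 genes, 3 were called lower and 1 higher, beside 33.3% of all genes called lower and 31.9% called higher. *Has1* passed the filter through its wild-type level and *Gdf5* through its *LMNA* G/G levels. *Prg4* was picked with these wild-type libraries, which favours a fall. The p-values of these 3 genes, and this count, are therefore given as description.

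Between the treatments, *Prg4*, *Cilp* and *Creb5* were higher in ABE-treated than in saline-treated *LMNA* G/G bone. The ratio of means was 3.91 for *Prg4*, 2.66 for *Cilp* and 1.48 for *Creb5*. *Prg4* rose by 1.89 (95% interval 1.04 to 2.73, adjusted p = 0.0013, limma), and 4 of 12 ABE libraries exceeded the highest saline library. It was picked for its low level in these saline-treated libraries, which favours a rise here. *Cilp* rose by 1.29 (95% interval 0.53 to 2.04, adjusted p = 0.0072, limma), with 8 of 12 libraries above the saline range. *Creb5* rose by 0.44 (95% interval 0.15 to 0.73, adjusted p = 0.013, limma), with 7 of 12 above it. *Has1* (0.28, 95% interval -0.080 to 0.65, adjusted p = 0.21, limma), *Has2* (0.041, 95% interval -0.13 to 0.21, adjusted p = 0.73, limma) and *Gdf5* (-0.025, 95% interval -0.21 to 0.16, adjusted p = 0.85, limma) did not pass. For *Has1* the added 0.05 exceeded both group means. Its ratio of means was 1.83, with 5 of 12 ABE libraries above the saline range. On recovered reads it was at 0.65 (adjusted p = 0.12, limma-voom). Thus 3 of the 6 genes were called higher and 0 lower by limma, beside 20.4% of all genes called higher and 20.2% called lower. At an unadjusted p under 0.05, and by limma-voom, 0 were lower as well. On the TPM as deposited, *Prg4* alone passed (1.52, adjusted p = 0.0099, limma), with *Cilp* at 0.91 (adjusted p = 0.070, limma) and *Creb5* at 0.15 (adjusted p = 0.46, limma). In females alone *Prg4* passed (2.19, adjusted p = 0.034, limma), with *Cilp* at 1.30 (adjusted p = 0.14, limma) and *Creb5* at 0.36 (adjusted p = 0.19, limma). In males alone *Prg4* (1.58, adjusted p = 0.029, limma), *Cilp* (1.27, adjusted p = 0.016, limma) and *Creb5* (0.52, adjusted p = 0.019, limma) passed.

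These 3 rises went along with shifts in markers of other tissues, of which muscle and tendon were the lists with every gene higher in ABE-treated bone. The 8 skeletal muscle genes summed to a median of 920 scaled TPM in wild-type (186 to 2778), 1879 in saline-treated (282 to 6827) and 5660 in ABE-treated libraries (986 to 11950). The 6 tendon and ligament genes summed to 10.9 (4.41 to 26.6), 9.63 (1.83 to 22.1) and 27.9 (8.36 to 41.5). All 8 muscle and all 6 tendon genes passed as higher in ABE-treated than in saline-treated bone, and none of them was at 0 in every library. Of the 7 fibroblast genes *Thy1*, *Cd34*, *Cd248* and *Dcn* rose, and their list summed to a median of 13.9 scaled TPM in saline-treated (9.57 to 18.3) and 18.5 in ABE-treated libraries (13.0 to 25.9). Of the 15 cartilage genes tested *Acan*, *Comp*, *Sox9* and *Chad* rose, with *Chad* at 2.13 (adjusted p = 6.9e-04, limma), and of the 5 adipocyte genes *Adipoq*, *Plin1*, *Cfd* and *Fabp4* fell. The fibroblast and adipocyte lists were not used as covariates. With the summed level of the muscle list as a covariate, *Prg4* was 1.18 higher (adjusted p = 0.051, limma), *Cilp* 0.52 (adjusted p = 0.27, limma) and *Creb5* 0.20 (adjusted p = 0.33, limma), so that 0 of the 6 genes passed, and 1, *Prg4*, had an unadjusted p under 0.05. On recovered reads with this covariate, added after the data were seen, *Prg4* passed (1.24, adjusted p = 0.046, limma-voom). With the tendon and ligament list as a covariate, added after the data were seen, the values were 0.69 (adjusted p = 0.32, limma), 0.023 (adjusted p = 0.97, limma) and 0.093 (adjusted p = 0.75, limma), with 0 of the 6 genes past the threshold, 0 at an unadjusted p under 0.05 and 0 by limma-voom. Whether these tissues brought in the added *Prg4*, *Cilp* and *Creb5* was not tested. In ABE-treated against wild-type bone, *Prg4*, *Has1* and *Cilp* passed with each of the 3 covariates. *Prg4* was picked with these wild-type libraries, and *Has1* passed the filter through its wild-type level, so for these genes this is a description. *Prg4* was -7.94, -7.05 and -6.41 in saline-treated and -6.76, -6.36 and -4.90 in ABE-treated bone against wild-type with the muscle, tendon and cartilage lists.

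**Figure D3:**
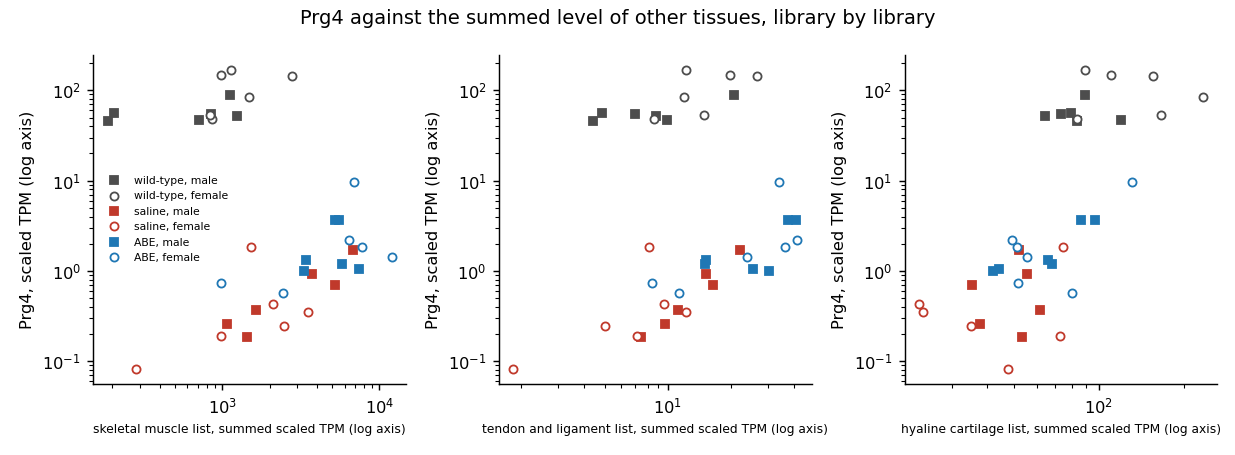
*Prg4* against the summed scaled TPM of the skeletal muscle, tendon and ligament and hyaline cartilage lists (log axes), 1 point per library, coloured by group, with squares for males and open circles for females. Every *LMNA* G/G library lies below every wild-type library in *Prg4*, which was selected on saline against wild-type. The cartilage sums of those 2 groups share only the range from 64.3 to 74.2, and ABE-treated libraries reach the highest muscle and tendon sums.

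**Figure D4:**
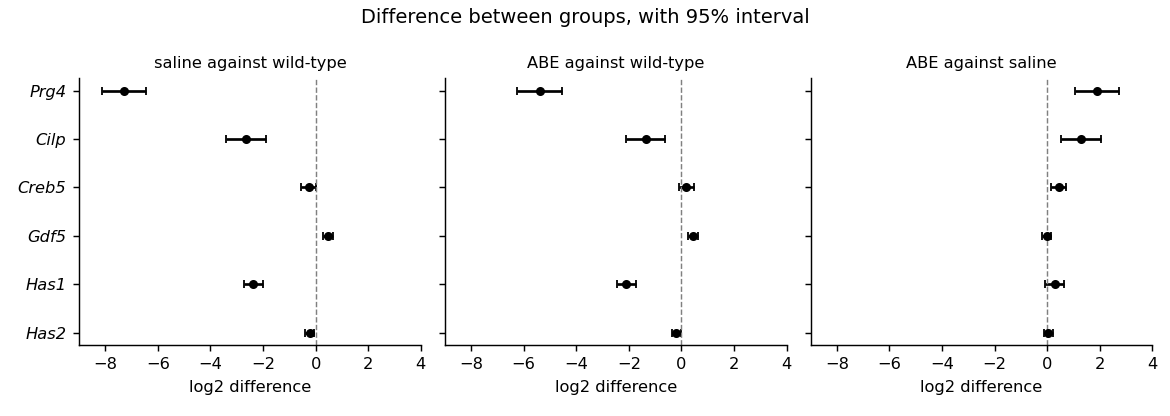
Difference between groups in log2(scaled TPM + 0.05) for the 6 genes, as points with 95% intervals from limma, for saline against wild-type, ABE against wild-type and ABE against saline. The first panel is a description, since *Prg4* was selected there. The intervals of *Prg4*, *Cilp*, *Has1* and *Has2* lie below 0 for ABE against wild-type, and those of *Prg4*, *Cilp* and *Creb5* lie above 0 for ABE against saline.

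An interaction term for sex (limma) passed for 0 of the 6 genes in each of the 3 comparisons. At an unadjusted p under 0.05 it passed for 2 genes in saline-treated against wild-type bone, 3 in ABE-treated against wild-type bone and 0 between the treatments, beside 21.3%, 18.8% and 13.9% of all genes, of which 1.02%, 2.76% and 0.0558% passed when adjusted. The saline minus wild-type difference of *Prg4* was -7.95 in females and -6.60 in males, with a difference of -1.35 between the sexes (SE 0.82, adjusted p = 0.33, limma). In wild-type bone its mean was 108 ± 52.1 scaled TPM (SD, n = 6) in females and 57.7 ± 16.0 (SD, n = 6) in males. The smallest p was that of *Creb5* in ABE-treated against wild-type bone, at -0.24 in females and 0.60 in males, with a difference of -0.84 (SE 0.24, adjusted p = 0.053, limma). It passed on the TPM as deposited (adjusted p = 0.025, limma) and on recovered reads (adjusted p = 0.049, limma-voom). Wild-type *Creb5* was 0.283 ± 0.106 (SD, n = 6) in females and 0.163 ± 0.0454 (SD, n = 6) in males.

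Beyond the 6 genes, other genes of the joint surface moved in both directions in saline-treated bone. Below, the most abundant genes of each list are named by a rule on their wild-type level, and the other called genes were named after their values were seen. Of the 9 markers of synovial lining fibroblasts, *Htra4*, *Hbegf*, *Tspan15*, *Itgb8* and *Cd55* fell and *Vcam1* rose against wild-type (median -0.52, where the median of all genes was 0.0061). For this and the other lists, 24.2% of all genes were called lower and 24.2% higher in saline-treated bone. *Htra4*, a serine protease, fell from 4.55 ± 2.53 to 0.166 ± 0.0663 scaled TPM (SD, n = 12 each, log2 difference -4.28, adjusted p = 1.6e-14, limma), and stood at 0.372 ± 0.378 in ABE-treated bone. *Cd55*, which shields cells from complement, fell by 0.52 (adjusted p = 1.8e-08, limma). *Vcam1*, an adhesion molecule, rose by 0.49 (adjusted p = 0.024, limma), and *Col22a1*, a collagen of tissue junctions, was at -0.046 (adjusted p = 0.84, limma).

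Of the 7 superficial zone markers, 1 passed in saline-treated bone, *Cilp2*, the paralog of *Cilp* (median -0.22). It fell from 1.47 ± 0.909 to 0.489 ± 0.210 scaled TPM (SD, n = 12 each, log2 difference -1.41, adjusted p = 2.7e-04, limma) and stood at 2.43 ± 1.25 in ABE-treated bone, above wild-type (0.75, adjusted p = 0.029, limma). Of the abundant markers, *Thbs4*, a matrix protein of tendon, was at -0.32, *Clu*, a secreted chaperone, at -0.29, *Abi3bp* at -0.22 and *Erg*, a transcription factor also made by blood vessels, at 0.11, and they did not pass. Of the 5 tested genes of joint formation, *Wnt4* and *Nog* rose and *Enpp2* and *Osr2* fell. *Enpp2*, which makes lysophosphatidic acid, fell by 1.53 (adjusted p = 1.9e-08, limma), while the ligand *Wnt4* rose by 0.64 (adjusted p = 0.0013, limma) and the BMP antagonist *Nog* by 0.70 (adjusted p = 0.0090, limma). *Wnt9a*, a joint-inducing ligand, was at 0.49 (adjusted p = 0.14, limma).

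These 3 joint lists together held 24 genes, of which 21 were tested. Against wild-type 3 rose and 8 fell in saline-treated bone (median -0.22), beside 24.2% of all genes called higher and 24.2% lower. In ABE-treated bone 8 rose, and *Htra4*, *Tspan15*, *Cd55*, *Clu* and *Enpp2* fell (median -0.038, all genes -0.020). There 31.9% of all genes were called higher and 33.3% lower, so the joint lists lay near the share of all genes. Between the treatments 13 were higher in ABE-treated bone and 1, *Vcam1*, lower (median 0.51, all genes -0.011), beside 20.4% of all genes called higher and 20.2% lower. *Cilp2* rose by 2.16 (adjusted p = 4.3e-05, limma), *Thbs4* by 1.51 (adjusted p = 0.0032, limma), *Wnt9a* by 0.995 (adjusted p = 0.0050, limma), *Nog* by 0.84 (adjusted p = 0.0041, limma), *Htra4* by 0.76 (adjusted p = 0.019, limma) and *Abi3bp* by 0.62 (adjusted p = 0.011, limma). *Vcam1* fell by 0.84 (adjusted p = 0.0011, limma). With the muscle list as a covariate 2 of these genes passed between the treatments, *Cilp2* and *Vcam1*, and with the tendon and ligament list 1 did, *Cilp2*.

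Genes that handle hyaluronan did not move one way. Of the 12 tested, *Cd44*, *Hyal2*, *Tnfaip6* and *Vcan* rose and *Hapln1* and *Lyve1* fell in saline-treated against wild-type bone (median 0.076). Of all genes, 24.2% were called higher and 24.2% lower. *Cd44*, the main hyaluronan receptor, rose from 7.79 ± 0.813 to 13.6 ± 1.75 scaled TPM (SD, n = 12 each, log2 difference 0.80, adjusted p = 2.2e-08, limma). The matrix proteoglycan *Vcan* rose by 1.52 (adjusted p = 1.4e-12, limma), and *Tnfaip6*, which links proteins to hyaluronan, rose by 1.21 (adjusted p = 1.5e-06, limma). *Hapln1*, the link protein of cartilage, fell by 2.16 (adjusted p = 6.1e-07, limma), and *Lyve1*, a receptor of lymphatic vessels and macrophages, fell by 1.93 (adjusted p = 2.8e-11, limma). *Stab2*, a scavenger receptor that clears hyaluronan, was at -0.32 (adjusted p = 0.14, limma), and *Ugdh*, which makes a sugar precursor of hyaluronan and stands in the lining list too, was at 0.11 (adjusted p = 0.31, limma). *Hmmr*, a hyaluronan-binding protein of dividing cells, was at -0.0096. The third synthase, *Has3*, was at 0.0418 ± 0.0175, 0.0576 ± 0.0240 and 0.111 ± 0.0381 scaled TPM in the 3 groups (SD, n = 12 each), and rose in ABE-treated against saline-treated bone by 0.57 (adjusted p = 0.0023, limma).

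In ABE-treated against wild-type bone, *Has3*, *Cd44*, *Hyal2*, *Tnfaip6* and *Vcan* rose and *Hyal1*, *Hapln1*, *Hmmr*, *Lyve1* and *Stab2* fell. Between the treatments *Has3* and *Lyve1* rose and *Hyal1*, *Hmmr* and *Stab2* fell. Of all genes, 31.9% were called higher and 33.3% lower in the first of these comparisons. The shares were 20.4% and 20.2% between the treatments. Of the 5 regulators of lubricin in the TGF-beta and FOXO pathways, 1 passed in saline-treated bone, the receptor *Tgfbr2*, which rose by 0.44 (adjusted p = 4.0e-05, limma). The ligand *Tgfb1* was at -0.17, its effector *Smad3* at 0.14 and *Foxo3* at -0.10. Against wild-type *Tgfbr2*, *Smad3* and *Foxo1* rose and *Tgfb1* and *Foxo3* fell in ABE-treated bone. Between the treatments *Smad3* and *Foxo1* rose and *Tgfb1* and *Foxo3* fell.

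Markers of other tissues moved beside the low *Prg4*. Of the 15 hyaline cartilage genes tested, 13 fell in saline-treated against wild-type bone (median -2.27) and 12 in ABE-treated bone (median -1.79). Of all genes, 24.2% and 33.3% were called lower in these 2 comparisons. *Col10a1*, *Cnmd*, *Ucma* and *Matn3* passed the filter through their wild-type levels, which favours a fall. Their p-values and these counts are therefore given as description. The summed list ranged from 64.3 to 235 scaled TPM in wild-type (median 89.1), from 22.9 to 74.2 in saline-treated (median 49.8) and from 41.9 to 131 in ABE-treated libraries (median 60.8). *Chad* fell by 3.27 (adjusted p = 1.5e-07, limma), *Comp* fell by 2.25 (adjusted p = 1.0e-06, limma) and the cartilage collagen *Col2a1* fell by 1.04 (adjusted p = 0.0042, limma), whereas *Col11a2* was at -0.52 (adjusted p = 0.070, limma). The largest fall of the list was that of *Col10a1*, from 3.28 to 0.0338 scaled TPM (log2 difference -4.98, adjusted p = 1e-15, limma). In ABE-treated against wild-type bone *Col10a1* was at -4.66. *Snorc* was at -3.62, *Col9a2* at -3.36 and *Cnmd* at -3.08 in saline-treated bone. The added 0.05 exceeded the saline means of *Cnmd* (0.0122 scaled TPM) and *Col10a1*, and lay near that of *Snorc* (0.0576). It understates these differences, so their order is not a ranking by ratio. Whether the wild-type tibiae held more cartilage tissue was not tested. All 5 markers of synovial lining macrophages fell in both *LMNA* G/G groups, and in saline-treated bone *Vsig4* fell by 2.81 (adjusted p = 5.8e-11, limma), *Folr2* fell by 1.38, *Cx3cr1* fell by 0.66 and *Trem2* fell by 0.38, and their sum ranged from 2.73 to 5.30 scaled TPM in wild-type and from 0.993 to 2.19 in saline-treated libraries. Of the 7 fibroblast markers, *Pi16*, *Cd34*, *Dpp4*, *Cd248* and *Dcn* fell in saline-treated bone, and *Pdgfra* was at -0.12 (adjusted p = 0.47, limma). Of the 8 muscle genes, *Acta1*, *Myh1*, *Tnnt3*, *Atp2a1* and *Pvalb* rose, and *Myh4* was at 0.87 (adjusted p = 0.12, limma). Of the 6 tendon and ligament genes *Scx* and *Mkx* rose and *Kera* fell, while *Tnmd* was at 0.0067, *Fmod* at -0.42 and *Tppp3* at -0.45 and did not pass. Of the 5 adipocyte genes, *Fabp4* rose and *Plin1* and *Lep* fell, while *Adipoq* was at 0.40 (adjusted p = 0.18, limma) and *Cfd* at -0.64 (adjusted p = 0.25, limma). *Lep* too passed the filter through its wild-type level. All 4 osteocyte genes rose, with *Mepe* at 4.93 (adjusted p = 5.5e-16, limma). No marker of these lists was at 0 in all libraries. With the summed cartilage list as a covariate, the saline minus wild-type difference was -6.41 for *Prg4*, -2.22 for *Cilp* and -2.23 for *Has1*. That sum is led by *Col11a2*, *Col2a1*, *Comp* and *Chad* (wild-type means 31.6, 24.5, 18.6 and 14.9 scaled TPM). Weaker genes such as *Col10a1* add little to it, so the covariate cannot decide what part cartilage had in these differences. The part of the macrophage, fibroblast, adipocyte and osteocyte lists was not tested.

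**Figure D5:**
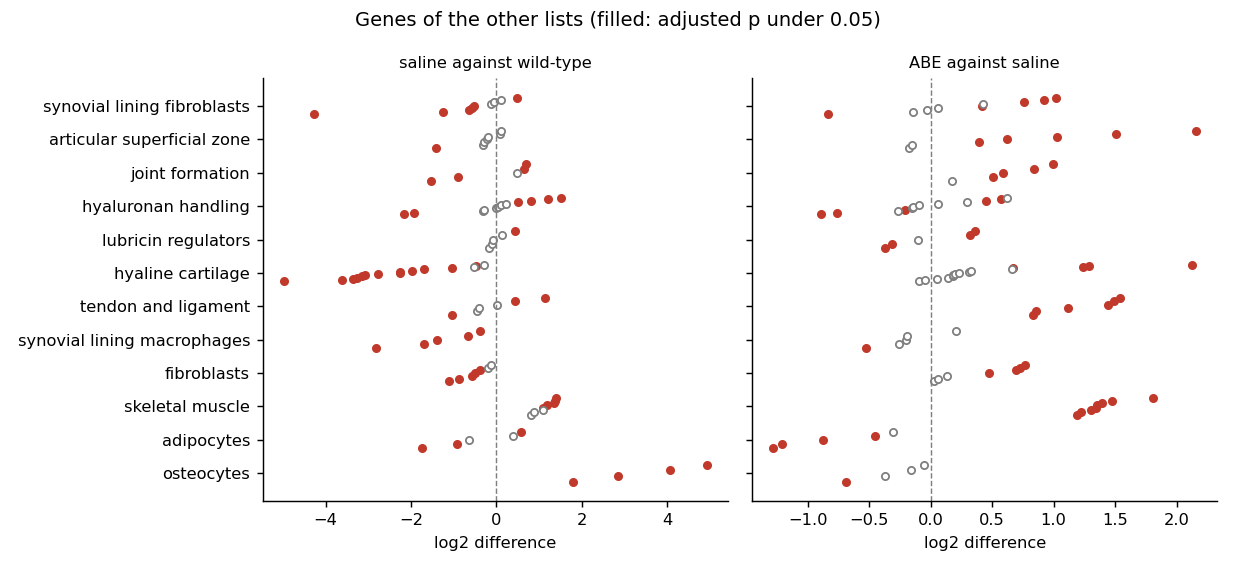
Log2 differences of the genes of each list, saline against wild-type on the left and ABE against saline on the right (x axes differ), filled where the adjusted p (limma) is under 0.05. In saline-treated bone 13 of 15 cartilage genes lie below 0 and filled, and between the treatments all 8 muscle and all 6 tendon and ligament genes lie above 0 and filled.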

How the data were processed

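Poly(A) RNA of tibiae was sequenced from stranded libraries. The authors aligned reads to GRCm38 with STAR (2.73a in the submitters' processing notes), used QoRTs to count them on genes of GENCODE, and deposited TPM for 56246 genes in 36 libraries, together with gene lengths. How TPM were computed is not given in the sources used here. The deposited values behave as read counts over an effective length, which is the gene's length minus 218 bp with a minimum of 1 bp, times 1 factor for each library. Undoing this left 100% of values within 0.01 of a whole read. Between 84.7% and 96.6% of TPM lay on genes no longer than 219 bp, which makes the TPM of longer genes small.

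TPM were divided by the median ratio of each library's genes to their geometric means. The model was limma on log2(scaled TPM + 0.05), with 0.05 as pseudocount, a mean trend, sex as a covariate and all 36 libraries in 1 fit, for 25110 genes whose mean reached 0.05. A gene was called when its p, adjusted by Benjamini-Hochberg over all of them, was under 0.05. Mice were grouped by their labels, and 0 pairs of libraries were identical. The members and lists were chosen with earlier results of these data known. Named were the 6 genes, the 4 genes of each list with the highest wild-type mean, and the 5 genes whose within-group correlations with *Prg4* were highest. Of the list genes, *Tmem2* was not matched by symbol, and *Gdf6*, *Barx1*, *Dcx* and *Matn1* lay under the filter. Coordinates are those of GENCODE M21, whose identifiers of the 6 genes have the same versions. Start regions came from RefSeq and matched 3 of the 6 genes.

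Alternatives were the TPM as deposited, TPM rescaled by what genes above 219 bp sum to, pseudocounts of 0.01 and 0.5, no filter and a filter at 0.5, limma-voom on recovered reads, no mean trend, leaving sex out, fits on 2 groups at a time, either sex alone, covariates for muscle and cartilage, the omission of F109436 and of each library in turn. Covariates for tendon and ligament, and both tissue covariates with limma-voom, were added after the data were seen. R 4.3.3, limma 3.58.1, Python 3.11.15, numpy 2.4.6, pandas 2.3.3 and matplotlib 3.10.9 were used.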

Additional observations from a re-analysis of the deposited data

How the results depend on the processing

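*Prg4* and *Has1* in both *LMNA* G/G groups, and *Cilp* in saline-treated bone, stayed below wild-type under each alternative that gave a value for them. *Prg4* and *Has1* also kept their side of the threshold in ABE against wild-type. In these comparisons every *LMNA* G/G library lay below every wild-type library. An added constant or a library left out could therefore not turn the direction. *Prg4* was also selected on saline against wild-type, so this is a description and adds no support. *Has1* was not tested with the filter at 0.5, and the tissue covariates on recovered reads were run for ABE against saline alone. The threshold was missed by *Cilp* in ABE-treated against wild-type males alone, at -0.77 (adjusted p = 0.051, limma). Levels under 0.1 scaled TPM rest on few reads, which limits *Gdf5*, *Has1* and *Has2*. A difference in batch between the wild-type and the other mice, if any, cannot be told apart from genotype. The causes of the changes below were not tested.

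With the TPM as deposited, ABE against wild-type gave -0.26 for *Creb5*, 0.16 for *Gdf5* and -0.52 for *Has2*, and ABE against saline gave 0.91 for *Cilp*, 0.15 for *Creb5* and -0.15 for *Has2*, with 1 of the 6 genes and 8 joint list genes called. The sex differences turned to 0.0022 for *Gdf5* in saline against wild-type and, in ABE against saline, to -0.033 for *Prg4*, -0.63 for *Cilp*, -0.29 for *Gdf5* and -0.28 for *Has2*. Added constants of 0.01 and 0.5 gave saline minus wild-type values of 0.76 and 0.095 for *Gdf5*, -3.37 and -0.69 for *Has1*, and, at 0.5, -6.22 for *Prg4*. A filter at 0.5 left *Prg4* and *Cilp*, and 2 genes were called in both comparisons with wild-type. On recovered reads saline minus wild-type was 0.88 for *Gdf5* and -3.79 for *Has1*.

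*Has2* in ABE against wild-type, -0.19 with p at the threshold, passed at -0.52 with the TPM as deposited, -0.33 with TPM rescaled to longer genes, -0.042 with 0.5 added, -0.32 on recovered reads, -0.19 without the mean trend, without the sex covariate or with only the groups compared, -0.37 in males, -0.33 with the muscle and -0.23 with the tendon covariate, and -0.20 without F109436. *Has1* in ABE against saline passed at 0.28 with only these groups. In males alone *Creb5* was 0.078 in saline and 0.60 in ABE against wild-type, and 6 joint list genes were called in ABE against saline. In females alone *Creb5* was -0.24 in ABE against wild-type with 7 joint list genes called, and ABE against saline gave 1.30 for *Cilp* (adjusted p = 0.14, limma), 0.36 for *Creb5* (adjusted p = 0.19, limma) and 0.0049 for *Gdf5*, with 1 of the 6 genes and 8 joint list genes called.

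In ABE against saline the muscle covariate gave 1.18 for *Prg4*, 0.52 for *Cilp*, 0.20 for *Creb5* and -0.033 for *Has2*, with 0 of the 6 genes (1 at an unadjusted p under 0.05, limma) and 2 joint list genes called, and *Creb5* was -0.28 in ABE against wild-type. On recovered reads it gave 0.58 for *Cilp*, 0.24 for *Creb5* and -0.064 for *Has2*, with 1 and 2 called. The cartilage covariate gave 0.38 for *Creb5* and 9 joint list genes. The tendon covariate gave 0.69 for *Prg4*, 0.023 for *Cilp*, 0.093 for *Creb5*, -0.092 for *Has1* and -0.012 for *Has2*, with 0 and 1 called, and -0.098 for *Creb5* in ABE against wild-type. On recovered reads it gave 0.70, 0.070, 0.11, -0.020 and -0.029 for the same genes, with 0 and 1 called.

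Leaving out each library gave -0.23 to -0.16 for *Has2* in ABE against wild-type (adjusted p = 0.017 to 0.10, limma) and, in ABE against saline, -0.058 to 0.00017 for *Gdf5* and -0.0014 to 0.075 for *Has2*, which turned sign without the saline-treated male 9. Without that male, the number of the 6 genes called in saline against wild-type went from 5 to 4. Other calls and directions of single genes in the comparisons of ABE-treated bone, and other directions in saline against wild-type, stayed as they were when 1 library was left out.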
